A study of Lithobates clamitans with 20 samples.

Results

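Gut expression of cool tadpoles was compared between microbial colonization treatments, using the 10 tadpoles of the green frog (Lithobates clamitans) whose animal codes place them at 22°C, out of 20 tadpoles in the whole experiment. The members were chosen by animal code alone: 5 codes start with C22 (C2201, C2204, C2206, C2207 and C2208) and were read as cool colonized, and 5 start with D22 (D2201, D2202, D2203, D2206 and D2209) and were read as cool depleted. Colonized tadpoles grew in laboratory water mixed with untreated water from their parents' pond, depleted tadpoles in the same mixture with the pond water autoclaved, so that depleted animals still carried a microbiome, of lower diversity and changed composition, and were not germ-free. All tadpoles were offspring of a single mating pair, were housed individually, ate an autoclaved diet and stayed at 22°C until the whole gastrointestinal tract was removed. Another 10 tadpoles, whose codes start with C32 (read as warm colonized) or D32 (warm depleted), spent the last 24 h at 32°C by their codes and serve here only as a second comparison.

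The records of these animals do not agree. The treatment fields of the 5 C22 tadpoles also give cool colonized, while those of the 5 D22 tadpoles give warm and colonized instead of cool and depleted. By these fields the comparison below would be one of temperature within colonized tadpoles, and every value in it would stay as it is. Of the 10 tadpoles with codes for 32°C, the 5 D32 tadpoles have treatment fields that match, while those of the 5 C32 tadpoles give cool and depleted, so that by the fields the second comparison would be one of temperature within depleted tadpoles. The groups follow the codes throughout, and the direction "depleted over colonized" rests on that reading.

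The vertebrate intestine meets microbes at its epithelium, where cells absorb nutrients, secrete mucus and antimicrobial proteins, and sense microbial products through pattern recognition receptors. In germ-free mice and zebrafish, genes of lipid handling, xenobiotic metabolism and mucosal defence are known to be expressed at other levels than in conventionally colonized animals. The question here is which gut genes of a tadpole differ when the resident community is disrupted but present, at a temperature that is not stressful. The deposited identifiers belong to the genome of the American bullfrog, a congener, and are not paired with gene names, so that no function could be given to any gene, the gut could not be checked by its marker genes, and only 2 identifiers in each direction are printed. The authors divided each gut between 2 samples, aiming to spread its sections evenly, so the RNA came from only a part of it. In RNA from such mixed tissue, fewer cells of a type and less RNA per cell cannot be told apart.

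Depth and composition varied between the libraries, and depth was lower on average in colonized tadpoles. Total counts on genes ran from 11102195 to 19894322 reads in colonized and from 17232256 to 22469475 in depleted tadpoles, with means of 15930000 ± 3226000 (SD, n = 5) and 20040000 ± 2347000 (exact permutation test, two-sided, p = 0.0397, and 0.119 when adjusted over 3 library measures). The number of genes with reads was 7791 ± 90.5 in colonized and 7767 ± 82.1 in depleted libraries (exact permutation p = 0.683). The 10 most abundant genes of a library took 24.1 ± 5.76% of its counts in colonized and 28.6 ± 2.53% in depleted tadpoles (exact permutation p = 0.183). The TMM factor, by which edgeR corrects each total for composition, was between 1.16 and 1.35 in 4 colonized libraries and 0.768 in C2206, and between 0.76 and 0.889 in 4 depleted libraries and 1.14 in D2209. C2206 thus had a factor in the range of those 4 depleted libraries, and D2209 one just below those of the 4 colonized libraries. CPM are counts scaled to a fixed library total, and for log2 CPM the total was also corrected by the TMM factor. Correlations of log2 CPM were between 0.724 and 0.806 within colonized and between 0.778 and 0.808 within depleted tadpoles. Across the groups they were between 0.729 and 0.811. In every pair of libraries at least 61.9% of genes with 20 or more counts differed beyond Poisson error, so that no library was a copy of another.

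Expression profiles of the groups differed as a whole on distances between counts, and the result depended on the values used. On Bray–Curtis distances between the counts, colonization accounted for 29.3% of the variation among the 10 cool tadpoles (pseudo-F = 3.32 of a permutational multivariate analysis of variance, exact permutation over all 252 splits of 5 against 5, p = 0.0159, where 0.00794 is the smallest possible). Distances between raw counts also hold differences in depth. With CPM by library totals in their place the difference no longer passed (pseudo-F = 2.39, exact permutation p = 0.0556). It did pass with square roots of these CPM (pseudo-F = 2.42, exact permutation p = 0.0476). It also passed with log2 CPM and Euclidean distances (pseudo-F = 1.32, exact permutation p = 0.0238), where CPM were scaled by TMM factors too. Colonized tadpoles lay 0.187 ± 0.0486 (SD, n = 5) from their centroid and depleted tadpoles 0.13 ± 0.0308 from theirs. The difference of −0.0575 did not pass at 0.05 (exact permutation of these distances, with the centroids kept, p = 0.0794). It passed when C2204, C2207 or D2209 was left out (exact permutation p = 0.0238, 0.0476 and 0.0159). Without C2206 or C2208 it shrank to −0.0374 and −0.031 (exact permutation p = 0.238 and 0.254). With CPM, square roots of CPM or log2 CPM in place of counts it did not pass either (exact permutation p = 0.0794, 0.151 and 0.365). The median Bray–Curtis distance was 0.192 between depleted tadpoles, 0.297 between colonized tadpoles and 0.301 between tadpoles of different groups. The colonized tadpole C2206 stood nearer to the depleted group, at a mean distance of 0.242 from the 5 depleted tadpoles and 0.33 from the other 4 colonized ones. C2201 stood about as near to both, at 0.263 and 0.274.

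**Figure D1:**
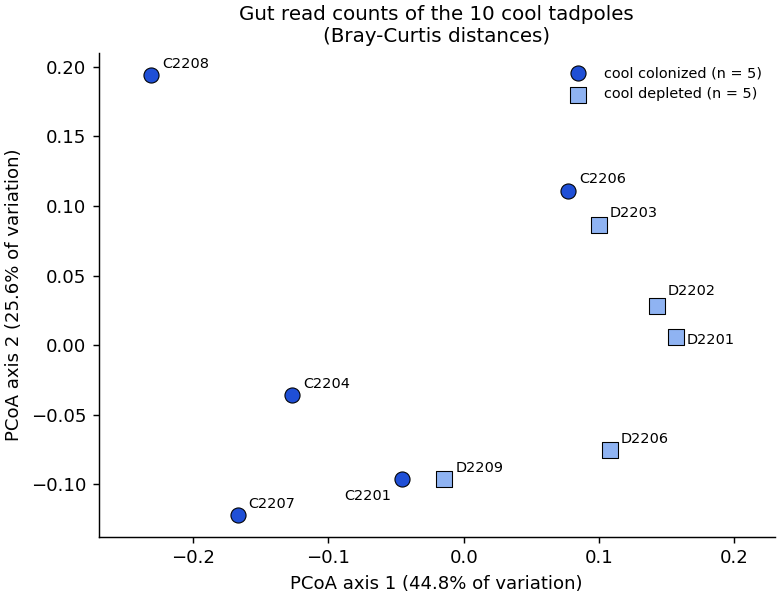
Principal coordinates of the 10 cool gut libraries from Bray–Curtis distances between counts, with 44.8% of the variation on axis 1 (horizontal) and 25.6% on axis 2 (vertical), circles for colonized and squares for depleted tadpoles. Depleted tadpoles sit to the right, with D2209 beside the colonized C2201, and the colonized C2206 sits among them next to D2203.

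No single gene passed the test between cool depleted and cool colonized tadpoles. The quasi-likelihood test of edgeR, with Benjamini–Hochberg adjustment over all 8477 genes and an adjusted p under 0.05 as the threshold, called 0 genes (0%). The smallest adjusted p was 0.0783 and was shared by 21 genes. Before adjustment, 995 genes had a p under 0.05 (11.7% of those tested), 413 higher (4.87%) and 582 lower (6.87%) in depleted tadpoles. Other tests on the same libraries called 17 genes (0.201%) with limma voom, 95 (1.12%) with the exact test of edgeR, 127 (1.5%) with its likelihood ratio test and 350 (4.13%) with DESeq2. Of these, 49 were higher and 78 lower in depleted tadpoles by the likelihood ratio test, and 170 were higher and 180 lower by DESeq2. At an adjusted p under 0.1, the quasi-likelihood test held 23 genes, 11 higher and 12 lower. Leaving out 1 tadpole gave between 0 and 5 genes at 0.05, the most without C2206. The 8477 genes include 26 at 0 in all 10 cool libraries. Genes of low counts were also dropped, by filterByExpr of edgeR or by at least 10 counts in at least 5 libraries. Either way the quasi-likelihood test called 0 genes, with a smallest adjusted p of 0.0533.

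The other 4 tests shared a small core of 15 genes, of which 7 were higher and 8 lower in depleted tadpoles. All 15 had normalized CPM that did not overlap between the groups, beside 2.87% of all genes. Of the 15, 13 were among the 23 genes with the smallest adjusted p by the quasi-likelihood test. The tests and the overlap use the same libraries, so their agreement is not independent. Their log2 fold changes, depleted over colonized, ran from 1.27 to 2.83 for the higher and from −2.16 to −1.24 for the lower genes. Their mean level in cool tadpoles ran from 10.6 to 7120 CPM, with a median of 87.9, against a median of 9.4 over all genes. Of the 355 genes that at least 1 of these 4 tests called, 166 did not overlap between the groups. Genes with a count of 0 in some library made up 59 of the 127 genes of the likelihood ratio test and 97 of the 350 of DESeq2, but 2 of the 17 of limma voom, beside 20.1% of all genes.

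The genes named below had the smallest p by the quasi-likelihood test, 2 in each direction, among genes without overlap. This contrast chose them, so their values in cool tadpoles are a description.

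AB205_0156120 was the abundant one among them, at 2790 ± 591 normalized CPM (SD, n = 5) in colonized and 11500 ± 4820 in depleted tadpoles. The colonized values were 2870 in C2201, 2980 in C2204, 2850 in C2206, 3420 in C2207 and 1810 in C2208. The depleted values were 18600 in D2201, 6720 in D2202, 7860 in D2203, 13700 in D2206 and 10400 in D2209. The lowest depleted tadpole was thus well above the highest colonized tadpole, and C2206 lay with its own group. The log2 fold change was 2.04 (standard error 0.32, edgeR adjusted p = 0.0783). As a share of all counts, which involves no scaling factor, the gene took 0.21% to 0.463% of a colonized library and 0.553% to 1.41% of a depleted one.

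AB205_0151690 had no reads in any of the 5 colonized tadpoles and reads in all 5 depleted ones. The counts in depleted tadpoles were 65 in D2201, 48 in D2202, 107 in D2203, 51 in D2206 and 52 in D2209. In normalized CPM these were 4.04, 2.6, 7.93, 2.67 and 2.56, with D2203 apart from the other 4. The mean of 3.96 ± 2.3 normalized CPM (SD, n = 5) was at least 22.8-fold higher than in colonized tadpoles when 3 counts per library, on average 0.174 CPM, are taken as the floor for a count of 0 (edgeR adjusted p = 0.0783). The floor covers counting error only. All 8477 genes had at least 2 CPM in at least 3 of the 20 libraries, and this gene reached 2 CPM in cool depleted tadpoles only. It was thus kept in the data only through the group in which it was high, and its absence elsewhere is a description. The tests differed widely on this gene, with an adjusted p of 3.05e-14 by the likelihood ratio test of edgeR and 0.212 by limma voom.

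AB205_0084260 had the smallest unadjusted p of all genes (1.43e-05 by the edgeR test) and was lower in depleted tadpoles. It had 28.3 normalized CPM in C2201, 30.7 in C2204, 24.7 in C2206, 40.2 in C2207 and 31.6 in C2208. In depleted tadpoles it had 12.8 in D2201, 9.47 in D2202, 13.8 in D2203, 10.7 in D2206 and 11 in D2209. The depleted values spanned a narrow range, and even the lowest colonized tadpole was far above it. The means were 31.1 ± 5.74 and 11.6 ± 1.71 (SD, n = 5), a log2 fold change of −1.43 (standard error 0.18, edgeR adjusted p = 0.0783). Without C2206 it was −1.5 with an adjusted p of 0.0323 in the same edgeR test, and no other of the 4 genes passed with 1 tadpole left out.

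AB205_0179520 was lower in depleted tadpoles too. Its colonized values were 26.5 normalized CPM in C2201, 35.5 in C2204, 28.7 in C2206, 43.3 in C2207 and 37.4 in C2208. Its depleted values were 12.5 in D2201, 14.8 in D2202, 16.9 in D2203, 14.5 in D2206 and 13.8 in D2209. Tadpoles of each group kept close together, and the groups were again clearly apart. The means were 34.3 ± 6.8 and 14.5 ± 1.6 (SD, n = 5), a log2 fold change of −1.24 (standard error 0.18, edgeR adjusted p = 0.0783).

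**Figure D2:**
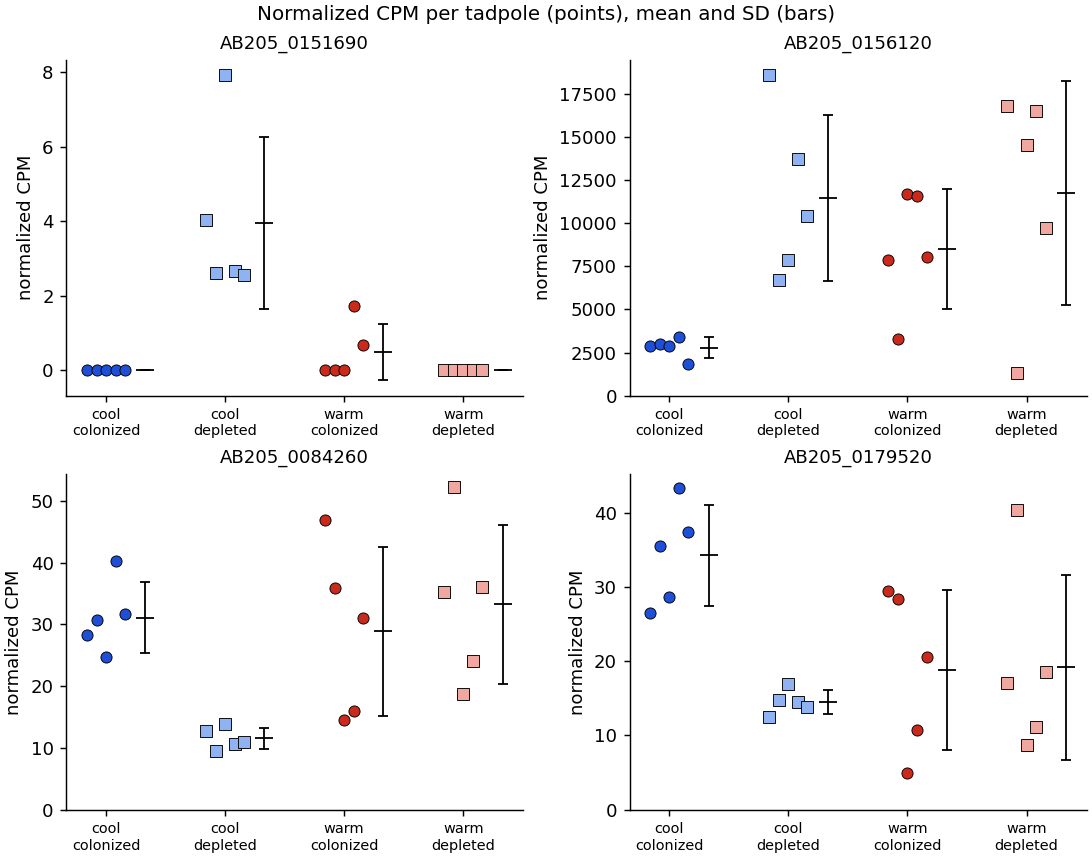
Normalized CPM (vertical axes, from 0) of the 4 named genes in each tadpole of the 4 groups by animal code, with circles for colonized and squares for depleted tadpoles, blue for 22°C, red for 32°C, and bars for the mean and SD of 5 tadpoles. Cool and warm libraries were scaled separately. The cool groups do not overlap in any of the 4 genes, while the warm groups overlap in all 4.

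Separation of the groups was seen in a set of genes that includes these 4. In 243 genes (2.87% of all genes) the normalized CPM of the groups did not overlap, with all 5 depleted tadpoles above all 5 colonized tadpoles in 118 genes (1.39%) and below them in 125 (1.47%). The set is defined by this contrast, so its sizes are descriptive. The median size of the log2 fold change was 1.15 for the 118 higher genes and 1.04 for the 125 lower genes, against 0.34 over all genes. A size above 1 was reached by 67 of the 118 and 64 of the 125 genes. Of the 243 genes, 219 had an unadjusted p under 0.05 by the edgeR test, among them all 23 with an adjusted p under 0.1. For many, the separation was small: with 0.1 CPM added to each value, the median gap between the nearest tadpoles of the groups was 0.2 on the log2 scale, and it was over 1 for 14 genes. Just inside the rule this gap was 0.00053, and just outside it was 0.

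Higher and lower genes differed in abundance. When all genes were divided into 4 equal classes by mean CPM over the 10 libraries, the class of most abundant genes (32.8 CPM and above) held 64 of the 118 higher genes and 21 of the 125 lower genes. The 2 classes of least abundant genes (below 9.4 CPM) held 9 and 11 of the higher genes, and 30 and 41 of the lower genes. The median level was 36.8 CPM in the higher and 7.29 CPM in the lower set. This tilt was not particular to genes without overlap. Over all genes, the median log2 fold change was −0.13, −0.14, −0.06 and 0.09 from the least to the most abundant class. The balance of directions depended on scaling. With total counts in place of TMM factors, the median gene's log2 fold change shifted by −0.42, and 32 genes were higher and 198 lower without overlap, of which 21 and 37 lay in the most abundant class. The RLE size factors of DESeq2, used in edgeR, gave 131 higher and 119 lower genes, 74 and 18 of them in that class. Under all 3 scalings 85 genes were without overlap in 1 direction, 23 higher and 62 lower, and these include the 4 named genes and 19 of the 23 genes with an adjusted p under 0.1. By unadjusted p under 0.05, 138 genes were higher and 1561 lower with total counts, beside 413 and 582 with TMM factors. Depth was also lower on average in colonized tadpoles, a difference that did not pass after adjustment over the 3 library measures (exact permutation, adjusted p = 0.119). After thinning of every library at random to 11102195 counts, the total of C2208, 236 genes were without overlap, 126 higher and 110 lower. Of these 236, 198 were among the 243 in the same direction, and the edgeR test called 0 genes. Overlap and the edgeR test already use values scaled for depth, and distances between counts were not recomputed after thinning. The part of depth in the differences was not tested.

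**Figure D3:**
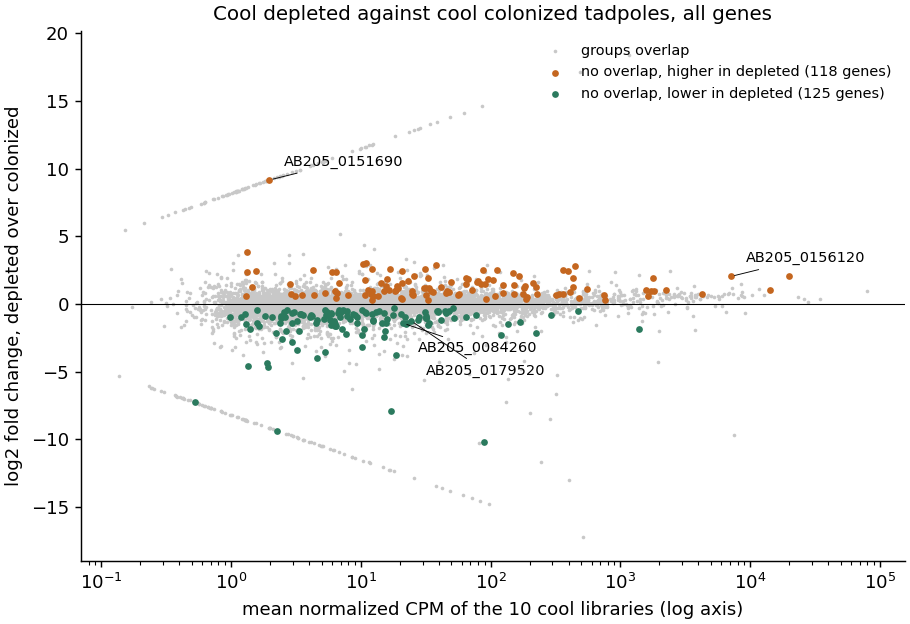
Log2 fold change of depleted over colonized tadpoles at 22°C (vertical axis) against mean normalized CPM (horizontal log axis) for all genes, with the 118 higher and 125 lower genes without overlap in colour. Higher genes spread to the right, with a median of 36.8 CPM, and lower genes to the left, with a median of 7.29 CPM; points along the slanted edges are genes at 0 in a whole group, whose fitted values depend on the prior count.

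A few abundant genes carried much of the difference in counts, as abundant genes did of the counts themselves. As shares of a library's counts, averaged over 5 tadpoles, the 10 genes with the largest differences held 30.2% of the summed absolute difference over all genes, and the first 100 genes held 62.7%. These genes were picked by their differences. The 10 most abundant genes of a library took 24.1% of its counts on average in colonized and 28.6% in depleted tadpoles. Its 100 most abundant genes took from 51.05% in C2207 to 69.01% in D2201. Of the 10, 6 were higher and 4 lower in depleted tadpoles, and 3 of them did not overlap between the groups in normalized CPM. The most abundant of them took 4.98% of counts in C2201, 5.82% in C2204, 7.7% in C2206, 3.7% in C2207 and 6.8% in C2208. In depleted tadpoles it took 9.41% in D2201, 13.2% in D2202, 8.14% in D2203, 7.16% in D2206 and 6.7% in D2209. The highest values were those of D2201, D2202 and D2203, and the other 2 depleted tadpoles lay within the colonized range. The gene with the third-largest difference behaved otherwise. It took 7.05% of the counts in C2208 and 1.8% in C2204, and no more than 0.0034% in any of the other 8 tadpoles. Its group mean of 1.77% in colonized tadpoles thus came from 2 animals. The 10 most abundant genes of each group, by mean share, had 8 genes in common.

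Absence of reads varied between tadpoles in many genes, and a complete split by treatment was seen in few. Reads in all 10 cool tadpoles were found for 6773 genes, and 1704 had a count of 0 in at least 1 of them. Among these, 1049 genes (12.4% of all genes) were at 0 in some tadpole and at 100 counts or more in another. In 757 of the 1049 genes, tadpoles at 0 occurred in both groups, in 147 they were all colonized and in 145 all depleted. A complete split by group was seen in 3 genes. That is a much stricter condition, so these counts cannot be set against each other. One was AB205_0151690. The other 2 had reads in all 5 colonized tadpoles and none in the 5 depleted tadpoles, with 10 to 32 counts in 1 gene (at least 6.04-fold higher in colonized tadpoles from the floor of 3 counts per library) and 12 to 143 counts in the other (at least 25.8-fold), and neither passed (edgeR adjusted p = 0.116 and 0.129). All 3 genes were split in the same way after thinning to equal depth. At 32°C, the gene with 10 to 32 counts had reads in 4 of 5 warm depleted and 5 of 5 warm colonized tadpoles. The gene with 12 to 143 counts had reads in 2 of 5 warm depleted and 4 of 5 warm colonized tadpoles.

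Genes with no reads in 1 whole group mostly had reads in few animals of the other. There were 92 genes at 0 in all colonized tadpoles with reads in some depleted tadpole, and 39 of them had reads in 1 depleted tadpole only and 32 in 2. There were 103 genes at 0 in all depleted tadpoles with reads in some colonized tadpole, and 45 of them had reads in 1 colonized tadpole only and 30 in 2. A count of 100 or more in some tadpole was reached by 69 of the 92 and 73 of the 103 genes, so these were not only genes at the limit of detection. In the warm tadpoles of the treatment that had no reads at 22°C, 78 of the 92 and 79 of the 103 genes had reads in at least 1 animal. In the warm tadpoles of the treatment that had reads at 22°C, 71 and 89 of them had. All genes in the data had at least 2 CPM in at least 3 of the 20 libraries. A gene with reads in only 1 or 2 cool tadpoles could meet this only with warm ones, so these warm counts were largely fixed by the filter.

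The number of genes that separated the groups moved most when the colonized tadpole C2206 was left out. Without it, 572 of the 8477 genes did not overlap, 268 higher and 304 lower. These include all 243 genes found with all 10 libraries, which is largely fixed by the rule, as groups that do not overlap stay apart without a member. In 372 of the 572 genes (65%) C2206 was on the depleted side of the midpoint between the group means of the other tadpoles. The 572 genes were chosen by leaving C2206 out, so this share follows in part from the choice. It is a description, with no share over all genes beside it. Leaving out any other single tadpole gave between 284 and 398 genes, and 398 without C2208, 396 without D2202, 390 without D2209 and 367 without C2204 were also more than 1.5 times 243. A group of 4 separates more easily than a group of 5, and all 10 counts with a library left out were above 243. Without C2206 the unadjusted p was under 0.05 for 1363 genes instead of 995 and the edgeR test called 5 genes, 3 higher and 2 lower. C2206 also had the lowest TMM factor and the largest share of counts in its 10 most abundant genes (30.7%) among colonized tadpoles. The part of these measures in its position was not tested.

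**Figure D4:**
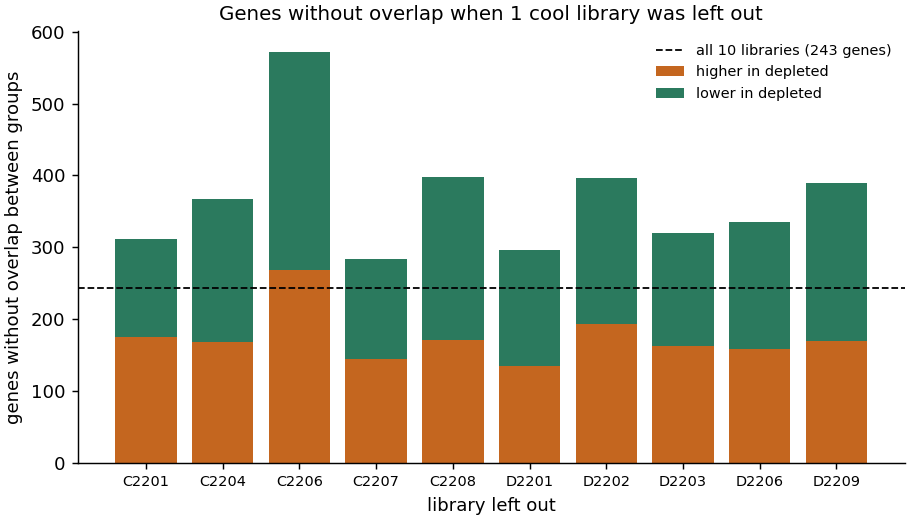
Number of genes without overlap between cool depleted and cool colonized tadpoles (vertical axis, stacked by direction) when the library on the horizontal axis was left out, with the 243 genes of all 10 libraries as the dashed line. The bar without C2206 reaches 572 genes and the others stay between 284 and 398.

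The biological coefficient of variation that edgeR estimates over all genes was 0.854 in colonized and 0.818 in depleted tadpoles, and the median gene had an SD of 0.52 and 0.48 on the log2 CPM scale. The SD was larger in colonized tadpoles for 4569 of 8477 genes (53.9%). The median standard error of a log2 fold change was 0.35, about as large as the median size of the fold changes themselves (0.34).

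Depleted and colonized tadpoles with codes for 32°C were compared in the same way, and here too the groups rest on the codes, against the treatment fields of the 5 C32 tadpoles. Between the 5 warm depleted and 5 warm colonized tadpoles the edgeR test called 0 genes (0%), and 623 genes (7.35%) had a p under 0.05 before adjustment. The smallest adjusted p was 0.641. Of the 8477 genes, DESeq2 called 139, the likelihood ratio test 8 and limma voom 0. Groups did not overlap in 127 genes (1.5%), 59 higher (0.696%) and 68 lower (0.802%) in depleted tadpoles. These tadpoles were not used to choose the genes above, except in the authors' abundance filter over all libraries. Of the 118 genes that were higher without overlap in cool depleted tadpoles, 65 (55.1%) had a log2 fold change above 0 at 32°C, beside 49.7% of all genes, with a median of 0.05. Of the 125 lower genes, 55 (44%) had one below 0 at 32°C, beside 50.3% of all genes, with a median of 0.07. Among the 85 genes without overlap under all 3 scalings, 15 of the 23 higher and 34 of the 62 lower genes kept their direction at 32°C. At 32°C, 3 of the 118 genes were again higher without overlap and 1 was lower, while 0 of the 125 separated in either direction. Of the core of 15 genes called by all 4 other tests, 8 had the same direction at 32°C, beside 43.7% of all genes. The median log2 fold change of the 15 along the direction in cool tadpoles was 1.99 at 22°C and 0.05 at 32°C. Genes chosen at 22°C have raised values there.

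**Figure D5:**
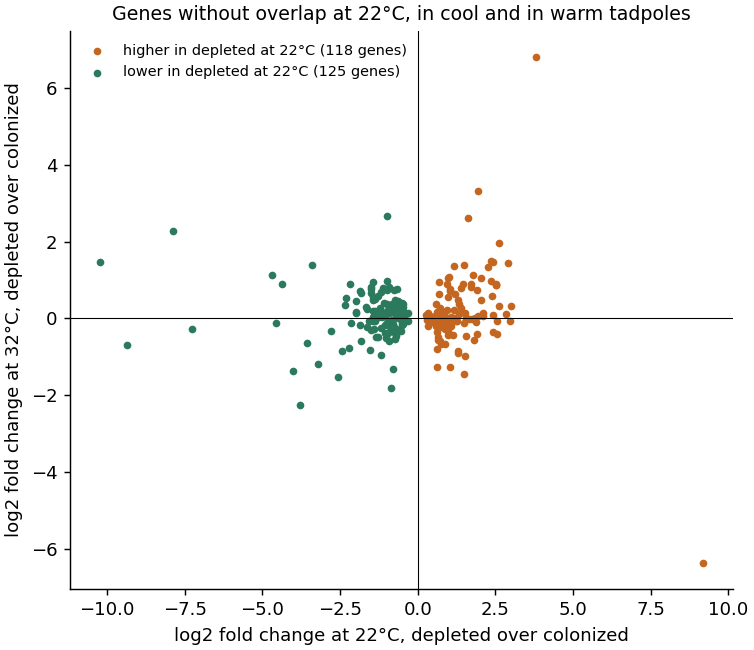
Log2 fold change of depleted over colonized tadpoles at 32°C (vertical axis) against that at 22°C (horizontal axis) for the 243 genes without overlap at 22°C. The genes are split by choice along the horizontal axis, while their values at 32°C spread around 0, with medians of 0.05 for the higher and 0.07 for the lower genes.

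The 4 named genes overlapped between warm groups. AB205_0156120 had between 3290 and 11700 normalized CPM in warm colonized tadpoles, with a median of 8030, and between 1330 and 16800 in warm depleted tadpoles, with a median of 14500 (log2 fold change 0.47, standard error 0.59). AB205_0151690 had no reads in any of the 5 warm depleted tadpoles and reads in 2 of the 5 warm colonized tadpoles, 34 counts in C3208 and 16 in C3210. This gene passed the abundance filter only through cool depleted tadpoles, so its warm values and interaction are a description. AB205_0084260 had a median of 31.1 normalized CPM in warm colonized tadpoles and of 35.2 in warm depleted ones, with ranges of 14.6 to 46.8 and 18.7 to 52.2. The medians of AB205_0179520 were 20.5 and 17 normalized CPM, with ranges of 4.96 to 29.4 and 8.67 to 40.3. The log2 fold changes at 32°C were 0.2 for AB205_0084260 (standard error 0.39) and 0.02 for AB205_0179520 (standard error 0.55).

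Whether the difference between depleted and colonized tadpoles changed with temperature was tested as an interaction, with the 4 groups fitted together. The edgeR test called 0 genes (0%), the smallest adjusted p being 0.207, and 1097 genes (12.9%) had a p under 0.05 before adjustment. The likelihood ratio test called 24 genes, DESeq2 435 and limma voom 0. Without D2209 the edgeR test called 4 genes, without D2206 or D3202 it called 1, and it called 0 without any other tadpole. The adjusted p of the interaction by the edgeR test was 0.212 for AB205_0151690, 0.237 for AB205_0084260, 0.347 for AB205_0156120 and 0.382 for AB205_0179520. Across all 8477 genes, the log2 fold changes at 22°C and 32°C, which share no tadpole, had a Pearson correlation of 0.00529 and a Spearman correlation of −0.1, as a description over genes that are not independent.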

How the data were processed

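Gut RNA libraries (TruSeq, 1 per tadpole) were trimmed by the authors with Trim Galore, mapped with BWA to the American bullfrog draft genome and counted with StringTie; versions and strand settings are not given in the sources used here. The deposited counts are unscaled whole numbers of reads per gene from which the authors had dropped transcripts of low abundance; all 8477 genes had at least 2 CPM in at least 3 of the 20 libraries. Reads of another species on this genome, and reads shared by related genes, were not examined here.

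Members and lists were chosen with earlier results of these data known, and groups follow the animal code in the sample title. Counts of the 10 cool libraries (11102195 to 22469475 each) were scaled by TMM and tested with edgeR 4.0.16 (glmQLFit, glmQLFTest) in R 4.3.3, with Benjamini–Hochberg adjustment over all genes. The study names edgeR but not the test. A standard error is the size of the log2 fold change divided by the root of F. Log2 CPM used TMM factors and a prior count of 2, while CPM and square roots of CPM for distances used library totals alone. The permutational analysis of variance and distances to centroids used vegan 2.7.1 with exact permutations. Named genes were the 2 in each direction with the smallest p among genes without overlap. Alternatives were DESeq2 1.42.0, limma 3.58.1 (voom with quality weights), the likelihood ratio and exact tests of edgeR, total counts, RLE factors, filterByExpr, at least 10 counts in at least 5 libraries, other thresholds, a fit of all 20 libraries, a replicate block and each tadpole left out. Thinning, and the leaving out of single tadpoles for genes without overlap, library measures, warm tadpoles and the interaction, were chosen after seeing the data. Scripts were tested on simulated data. Tadpoles are separate animals of 1 clutch.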

Additional observations from a re-analysis of the deposited data

Results flagged for a closer look

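Among cool depleted tadpoles, D2203 stood apart in AB205_0151690, with 7.93 normalized CPM against 2.56 to 4.04 in the other 4. Its gap to the nearest tadpole was 0.724 of the group's range, over Dixon's 95% critical value of 0.71 for 5 samples. It was the only 1 of 17 sets of 5 values examined (library measures and named genes in each group) to do so, and chance gives about 1 in 20.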

How the results depend on the processing

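The number of genes called between cool depleted and cool colonized tadpoles was 0 with total counts, RLE size factors, filterByExpr, a minimum of 10 counts in 5 libraries, thinned libraries, an adjusted p under 0.01 and the replicate block. It was 23 at an adjusted p under 0.1, 127 with the likelihood ratio test, 95 with the exact test of edgeR, 350 with DESeq2, 17 with limma voom, and 5 with all 20 libraries in 1 fit (65 there with the likelihood ratio test); the cause was not tested. With any 1 tadpole left out it ran from 0 to 5. The quasi-likelihood fits of all 20 libraries and with 1 tadpole left out called mostly genes outside the 23 and outside the core of 15. The 5 genes of the fit of all 20 libraries held 0 of the 23 genes with an adjusted p under 0.1 and 0 of the core of 15. The fits with 1 tadpole left out called 17 genes between them, with 4 of the 23 and 2 of the 15. The pseudo-F of the profiles was 2.39 with CPM in place of counts (exact permutation p = 0.0556) and 2.4 to 4.62 with a tadpole left out. The difference in distance to the centroid then ran from −0.0755 to −0.031 and genes without overlap from 284 to 572. The difference in total counts ran from 2905000 to 5103000 with a tadpole left out, with an exact permutation p from 0.0159 to 0.0952. That in genes detected ran from −56.7 to 10.35, changing sign without C2201 (6.05) or D2203. Warm tadpoles gave 8 genes with the likelihood ratio test, 139 with DESeq2 and 0 to 1 with a tadpole left out, and the interaction 24, 435 and 0 to 4. The 4 named genes kept their direction under every alternative. They were chosen by their separation in these same libraries, so this was largely fixed by the choice.

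Only the animal numbers 1 and 6 occur in both cool groups, and nothing says that a number marks a shared origin. The deviations of same-numbered tadpoles correlated at −0.037 and −0.11, and with the replicate block, which leaves 1 residual degree of freedom, 0 genes were called and 615 had an unadjusted p under 0.05.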
